A study of Mus musculus with 11 samples.

Results

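The genes described here are the integrin chains, laminin chains and numbered cadherins of mouse embryonic palatal mesenchyme cells, the receptors and matrix proteins by which these cells hold to their surroundings and to each other. They were chosen by name alone: every row whose RefSeq accession maps to an integrin alpha or beta chain, to a Lama, Lamb or Lamc gene, or to a Cdh gene with a number. That gave 60 of 23286 rows, of which 23 are cadherins, 17 integrin alpha chains, 9 integrin beta chains and 11 laminin chains. Itga10 was not analysed here. The naming rule is wider than the classical cadherins: Cdh13, Cdh16, Cdh17, Cdh23 and Cdh26 carry the name without being classical cadherins, and only Cdh13 of these 5 reached 1 FPKM in any group. In all, 34 of the 60 genes reached 1 FPKM in at least 1 group and were compared between groups. The other 26 stayed under that level.

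Integrins are heterodimers of an alpha and a beta chain that bind extracellular matrix outside the cell and link to actin inside it through talin, vinculin and other focal adhesion proteins. The alpha chain largely sets the ligand: some bind the RGD motif of fibronectin and related proteins, others collagens or laminins. Laminins are trimers of an alpha, a beta and a gamma chain and a main component of basement membranes. Classical cadherins join neighbouring cells by binding each other across the gap and hold the actin cytoskeleton through catenins. Mesenchyme typically carries N-cadherin and cadherin-11 where epithelium carries E-cadherin.

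The cells were primary cultures from the palates of mouse embryos at stage E13.5, grown in 10% serum and held overnight in 0.1% serum. The starved group (4 libraries) received nothing more, the PDGFA group (4 libraries) 30 ng/mL PDGFA for 1 h, and the FGF1 group (3 libraries) FGF1 at 50 ng/mL together with heparin at 1 µg/mL, also for 1 h. Both are growth factors that act through receptor tyrosine kinases. Heparin was given only with FGF1, so FGF1 and heparin cannot be told apart, and the ligand doses differ. The strain is not named in the labels, nor whether the replicates were separate litters or cultures. The table gives, per row and group, a single FPKM that the authors estimated over that group's replicates, and the limits of an interval around it. FPKM is a level per kilobase of transcript scaled to the fragments mapped, so genes can be compared with each other. Brackets after an FPKM hold this deposited interval, and brackets after a fold or ratio an interval computed from it. No value per library was used here, so no spread between replicates and no p-value stands behind any comparison, and sequencing depth is unknown.

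Most markers of the label were present. Of 12 palatal mesenchyme markers 11 reached 1 FPKM, with Prrx1 at 206 to 233 FPKM and Twist1 at 60.1 to 94.4 over the groups; the other, Col1a1, is a failed estimate listed at 0. Of 14 epithelial markers 2 reached 1 FPKM. Krt18 had 3.00 FPKM in starved cells, 5.01 with PDGFA and 4.08 with FGF1, and Esrp2 had 0.861, 0.949 and 1.13 in the same order. Esrp1 and Grhl2 were at or near 0 in every group. A gene was called higher or lower only where the intervals of both groups did not touch at all. Of the early response genes used to check the stimulation, 9 of 10 were called higher with PDGFA and 10 of 10 with FGF1; the largest log2 folds with PDGFA were those of Egr3, Arc, Fosb and Nr4a1. The summed FPKM of 11 skeletal muscle markers was 29.5 in starved cells, 117 with PDGFA and 35.6 with FGF1. Without Acta1 and Actc1 it was 10.8, 18.8 and 9.57 in the same order. Of 6 neuronal markers 3 reached 1 FPKM, with sums of 112 FPKM in starved cells, 131 with PDGFA and 119 with FGF1, carried by Stmn2 (39.2 FPKM in starved cells), Tubb3 (37.0) and Ncam1 (35.3), while Elavl3 and Snap25 were near 0. In bulk RNA fewer cells of a type and less RNA per cell cannot be told apart.

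Integrin RNA was dominated by Itgb1, the beta chain shared by most matrix-binding integrins. Itgb1 (chr8:128685654-128733579, mm10) stood at 543 FPKM [369 to 717] in starved cells, 492 [210.4 to 771] with PDGFA and 592 [371 to 813] with FGF1. It was the highest of all 60 genes and made up 73.8% of the summed beta-chain FPKM in starved cells. Itgb5, which pairs with the alpha v chain, followed at 178 FPKM [136 to 219.6] in starved cells, 196 [88.8 to 304] with PDGFA and 189 [126 to 252] with FGF1. The other beta chains were far lower. Itgb3, the partner of alpha v and of the platelet chain alpha IIb, had 8.72 FPKM in starved cells, 9.45 with PDGFA and 8.35 with FGF1. Itgb4, the partner of alpha 6 in hemidesmosomes, had 4.55 FPKM in starved cells, 4.01 with PDGFA and 4.57 with FGF1, and its PDGFA interval ran from 0.127 to 8.19. Itgb8, another partner of alpha v that takes part in activating latent TGF-beta, had 1.22 FPKM in starved cells, 1.18 with PDGFA and 1.30 with FGF1. The steps in this order were clear in starved cells: the intervals of all 4 neighbouring pairs lay apart, and the order was the same in every group. Itgb6, an epithelial partner of alpha v, and the leukocyte chains Itgb2 and Itgb7 stayed under 1 FPKM.

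Among the alpha chains, RGD-binding receptors made up 77.7% of the summed FPKM in starved cells, 78.0% with PDGFA and 78.4% with FGF1. Itga8, which pairs with beta 1 and binds nephronectin and other RGD proteins, had 97.4 FPKM [74.3 to 120.5] in starved cells, 82.7 [41.5 to 124] with PDGFA and 99.2 [66.2 to 132] with FGF1. Itga5, the fibronectin receptor chain (chr15:103344286-103366748), had 82.6 FPKM [63.8 to 101] in starved cells, 109 [53.5 to 164] with PDGFA and 88.8 [60.8 to 117] with FGF1. Itgav, the chain with the most beta partners, had 72.7 FPKM [55.8 to 89.6] in starved cells, 63.7 [32.5 to 94.8] with PDGFA and 74.9 [50.3 to 99.5] with FGF1. The starved intervals of these 3 genes overlap, so their order is not resolved: Itga8 had the highest value in starved and FGF1 cells and Itga5 with PDGFA. Itga2b, the platelet fibrinogen receptor chain, also belongs to the RGD class but had only 0.954 FPKM in starved cells, 1.56 with PDGFA and 1.39 with FGF1.

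Collagen receptors came next. Itga11, a fibroblast receptor for fibrillar collagen, had 24.0 FPKM in starved cells, 21.0 with PDGFA and 21.2 with FGF1. Itga1, a receptor that also takes basement membrane collagen, had 12.4 FPKM in starved cells, 10.1 with PDGFA and 11.9 with FGF1. Itga2, the platelet and epithelial collagen receptor chain, stayed between 0.267 and 0.446 FPKM. Together this class held 11.3% of alpha-chain FPKM in starved cells, 9.52% with PDGFA and 9.94% with FGF1. The laminin-binding chains held 9.06%, 10.6% and 9.80% in the same order. Itga3 led them with 18.2 FPKM in starved cells, 23.8 with PDGFA and 21.0 with FGF1. Itga7, a chain known best from muscle, had 6.09 FPKM in starved cells, 6.40 with PDGFA and 6.58 with FGF1. Itga6, which pairs with beta 1 or beta 4, had 5.24 FPKM in starved cells, 4.70 with PDGFA and 5.41 with FGF1. All 3 laminin-binding chains were thus present, and the starved interval of Itga3, 14.3 to 22.2, overlaps those of the collagen receptors Itga11 and Itga1.

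The pair Itga4 and Itga9, which bind VCAM1, fibronectin splice forms and tenascin, was low. Itga4 had 3.66 FPKM in starved cells, 3.38 with PDGFA and 3.77 with FGF1, and its row spans 95874 bases beyond the RefSeq gene, so its value may cover more than the gene. The row of Itga8 likewise runs 10330 bases past it. Itga9 had 2.41 FPKM in starved cells, 2.77 with PDGFA and 2.30 with FGF1. The 5 leukocyte chains (Itgad, Itgae, Itgal, Itgam and Itgax) reached at most 0.0259 FPKM each. Neighbours in the order Itga7, Itga6, Itga4 and Itga9 were not separated by their starved intervals, while that of Itga1 lay above Itga7 and that of Itga9 above Itga2b.

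Summed over all 17 alpha chains, starved cells had 326 FPKM [291 to 361], against 735 [556 to 914] for the 9 beta chains, with interval half-widths added as if independent. The beta sum was also above the alpha sum with FGF1, 795 [565 to 1025] against 337 [286 to 388]. With PDGFA the intervals met, at 703 [402 to 1003] against 329 [252 to 407]. The alpha v partners Itgb3, Itgb5, Itgb6 and Itgb8 summed to 188 FPKM [146 to 230] in starved cells, above the 72.7 FPKM of Itgav.

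**Figure D1:**
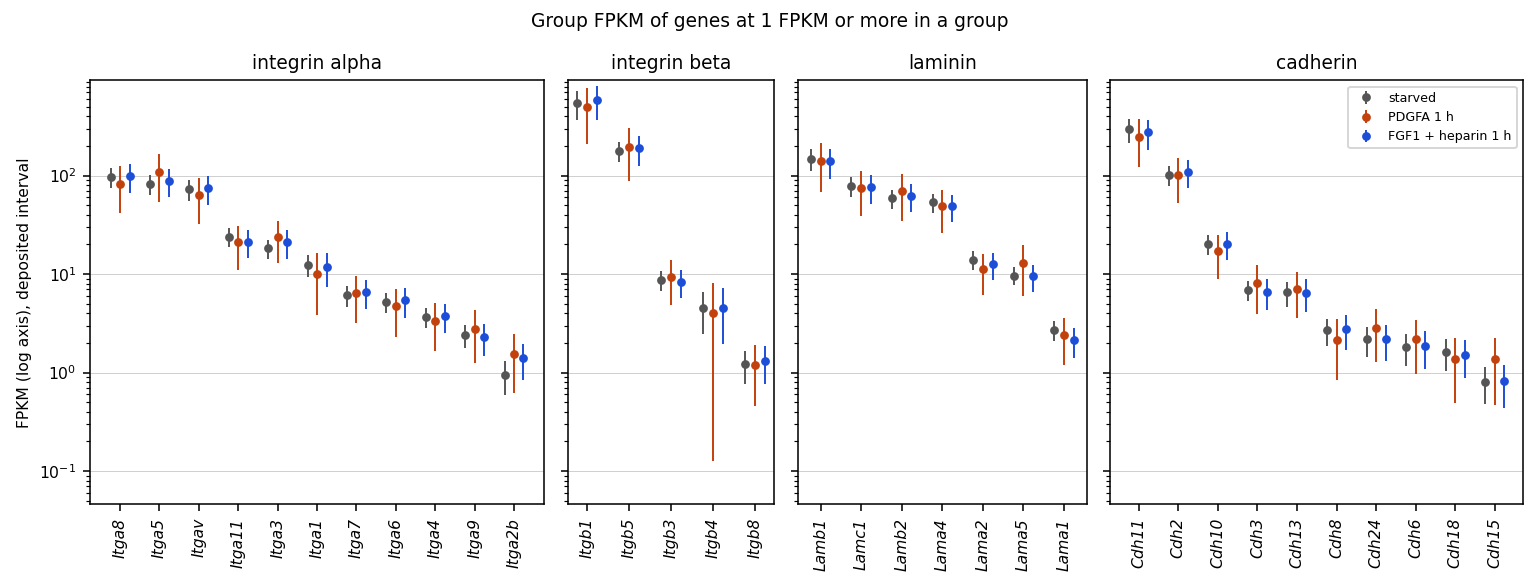
Group FPKM of 33 of the 34 genes that reached 1 FPKM, on a log axis, in starved cells (grey), after PDGFA (orange) and after FGF1 with heparin (blue), sorted within each family by the starved level. Points are the authors' group values and bars the deposited intervals; levels run from 543 FPKM for Itgb1 to under 1 FPKM for Cdh15 in starved cells, while the 3 groups of each gene overlap.

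Laminin RNA held a beta-rich set of chains. Lamb1 (chr12:31265294-31329639), the most abundant laminin gene, had 148 FPKM [111 to 186] in starved cells, 142 [68.4 to 215] with PDGFA and 139 [93.0 to 185] with FGF1. Lamb2, the alternative beta chain of many mature basement membranes, had 58.9 FPKM in starved cells, 69.8 with PDGFA and 62.2 with FGF1. Lamc1, the gamma chain of most laminins, had 78.8 FPKM in starved cells, 75.5 with PDGFA and 76.2 with FGF1 and made up 96.1% of gamma-chain FPKM in starved cells. Summed by chain, starved cells had 80.5 FPKM [68.2 to 92.9] of alpha, 208 [168 to 247] of beta and 82.0 [63.2 to 101] of gamma. The beta sum thus lay above the alpha and gamma sums, which overlap each other, and the same held with PDGFA and with FGF1. In a trimer the chains stand in equal number, and RNA levels do not give protein levels.

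Lama4, the alpha chain of mesenchymal and vascular laminins, had 53.8 FPKM in starved cells, 49.0 with PDGFA and 48.9 with FGF1 and was 66.8% of alpha-chain FPKM in starved cells. Lama2, the alpha chain of muscle and nerve laminin, had 14.0 FPKM in starved cells, 11.1 with PDGFA and 12.6 with FGF1. Lama5, common in epithelial and vascular basement membranes, had 9.67 FPKM in starved cells, 12.8 with PDGFA and 9.57 with FGF1. Lama1, the early embryonic alpha chain, was low at 2.72 FPKM in starved cells, 2.40 with PDGFA and 2.13 with FGF1. The starved interval of Lamb1 lay above that of Lamc1, while Lamc1, Lamb2 and Lama4 overlap in that order. That of Lama4 lay above Lama2, and that of Lama5 above Lama1. Lama3, Lamb3 and Lamc3 stayed under 1 FPKM.

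**Figure D2:**
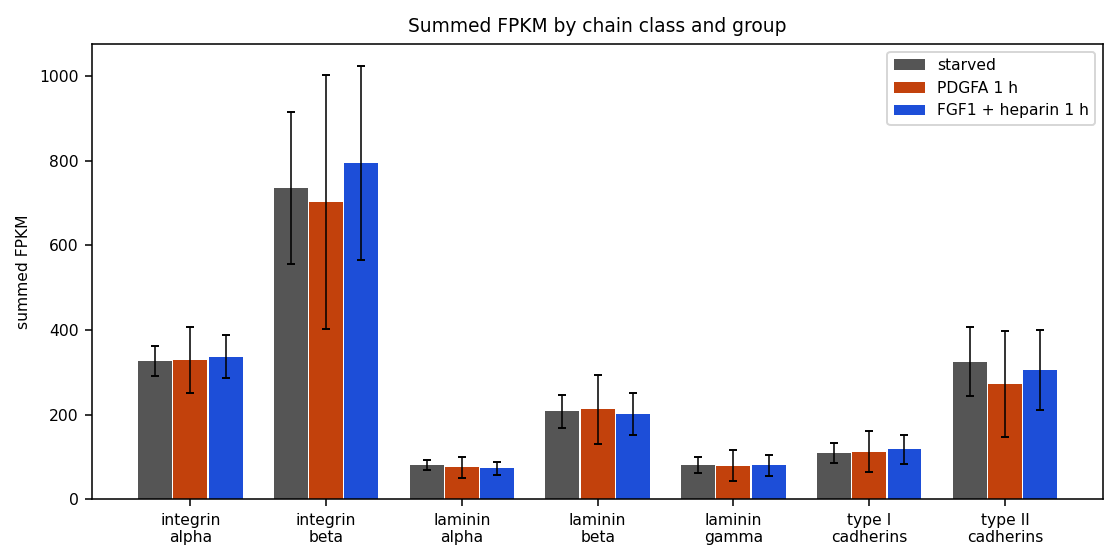
Summed FPKM by chain class in starved cells (grey), after PDGFA (orange) and after FGF1 with heparin (blue); error bars combine the deposited intervals of the genes as if independent. Beta integrin sums of 703 to 795 FPKM stand above alpha sums of 326 to 337, with intervals that meet for PDGFA, and laminin beta sums of 202 to 212 above both other laminin chains.

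Cadherin-11 and N-cadherin led the cadherins. Cdh11, the type II cadherin-11 of mesenchymal and bone-forming cells (chr8:102632995-102785111), had 296 FPKM [214 to 377] in starved cells, 247 [121 to 372] with PDGFA and 276 [181 to 371] with FGF1 and was 66.8% of all Cdh FPKM in starved cells. Cdh2, N-cadherin, had 102 FPKM [78.0 to 125] in starved cells, 102 [52.9 to 151] with PDGFA and 109.5 [74.6 to 144] with FGF1 and was 22.9%. Cdh10, a type II cadherin best known from brain, came next with 20.2 FPKM in starved cells, 17.0 with PDGFA and 20.2 with FGF1. The starved intervals of these 3 lay apart from each other and from all lower cadherins. Cdh3, P-cadherin, had 6.94 FPKM in starved cells, 8.14 with PDGFA and 6.58 with FGF1. Cdh13, which is anchored in the membrane by a lipid and lacks a cytoplasmic tail, had 6.52 FPKM in starved cells, 7.11 with PDGFA and 6.48 with FGF1, and it overlaps Cdh3.

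The remaining cadherins that reached 1 FPKM were 4 type II genes and M-cadherin. Cdh8 had 2.68 FPKM in starved cells, 2.16 with PDGFA and 2.77 with FGF1. Cdh24 had 2.19 FPKM in starved cells, 2.86 with PDGFA and 2.18 with FGF1. Cdh6, K-cadherin, had 1.81 FPKM in starved cells, 2.21 with PDGFA and 1.86 with FGF1. The starved intervals of these 3 overlap. Cdh18 overlaps both Cdh6 and Cdh15, which lie apart. Cdh18 had 1.61 FPKM in starved cells, 1.36 with PDGFA and 1.52 with FGF1. Cdh15, the M-cadherin of muscle precursors, had 0.807 FPKM in starved cells, 1.37 with PDGFA and 0.824 with FGF1 and passed 1 FPKM only with PDGFA. E-cadherin, Cdh1, was at 0.250 FPKM [0.121 to 0.371] in starved cells, and the endothelial Cdh5 at 0.0324. Type II cadherins made up 73.3% of Cdh FPKM in starved cells and type I cadherins 24.9%.

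The 26 genes under 1 FPKM ran from 0 to 0.823 FPKM over all groups. They comprised 13 cadherins (Cdh1, Cdh4, Cdh5, Cdh7, Cdh9, Cdh12, Cdh16, Cdh17, Cdh19, Cdh20, Cdh22, Cdh23 and Cdh26), 6 alpha chains (Itga2 and the 5 leukocyte chains), 4 beta chains (Itgb2, Itgb2l, Itgb6 and Itgb7) and 3 laminin chains (Lama3, Lamb3 and Lamc3). Cdh7 and Itgb2l were listed at 0 in every group. A value of 0 here is an estimate without a known depth. The row of Cdh16 spans 155196 bases beyond the RefSeq gene, and its value was still at or near 0.

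Near neighbours on a chromosome could differ widely in level. In the 2 cases described here a gene that reached 1 FPKM lies within 50 kb of another of the 60 genes at a very different level. Itga1 and Itga2 lie 26.04 kb apart on chromosome 13, and Itga1 was 27.9-fold higher [17.0 to 45.8] in starved cells. Cdh3 and Cdh1 lie 46.5 kb apart on chromosome 8, and Cdh3 was 27.7-fold higher [15.96 to 48.2]. In each pair the intervals of both genes lay apart in all 3 groups. With PDGFA the ratios were 37.7 and 26.1, and with FGF1 31.2 and 24.4, all inside the starved ratio's interval.

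**Figure D3:**
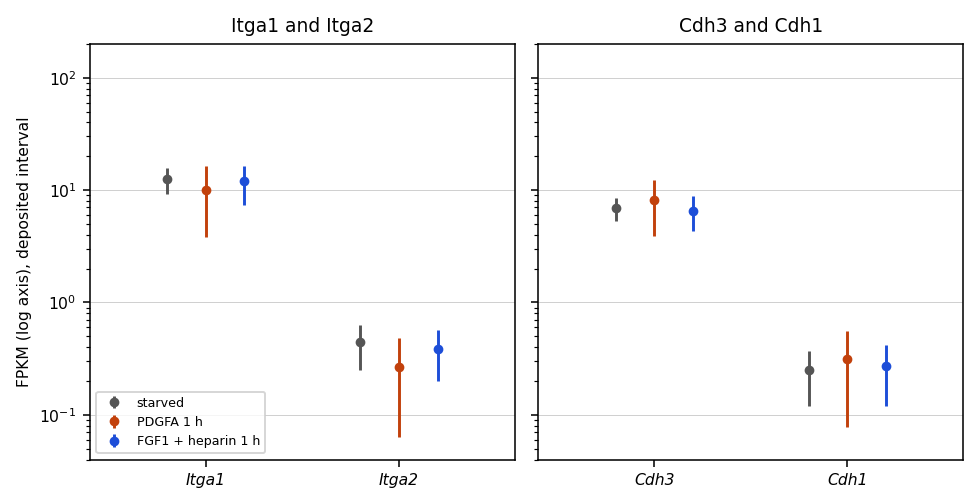
FPKM on a log axis, with deposited intervals, of 2 pairs of neighbouring genes in starved cells (grey), after PDGFA (orange) and after FGF1 with heparin (blue). In each pair the first gene is 24.4-fold to 37.7-fold above its neighbour, and the intervals do not meet in any group.

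Promoters of these genes could be read for 36 of the 60 from the RefSeq table (GRCm38.p6, the same build as mm10), each 250 bases before to 50 after the start site. The CG dinucleotide marks CpG islands, the usual promoters of broadly expressed genes. The other 24, among them Cdh11, Cdh2, Lamc1 and Lama4, had no entry and are left out here. Of those read, the 22 that reached 1 FPKM held a median of 13 CG per promoter and the 14 under it 5.5. All 32851 promoters of the table held a median of 7. At least 10 CG were held by 16 of the 22, 4 of the 14 and 43.5% of all. For Cdh9, Itga8 and Itga9 the listed start lies 49186, 10371 and 104983 bases from the row's edge. The split is not strict: Cdh22, under 1 FPKM, held 38 CG, the most of any, and Cdh10, at 20.2 FPKM, held 2.

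The 250 bases before the start are shown for 4 genes, 5′ to 3′ on the gene's strand. Itga1 and Itga2 are shown as the neighbours of unequal level, and Itgb1 as the most abundant of the 60. Lama2 is shown because it alone of the 36 held a CArG box, the site of serum response factor. Capitals mark CG in the first 3 and the CArG box in Lama2.
Itga1, chr13:115101965-115102214, minus strand: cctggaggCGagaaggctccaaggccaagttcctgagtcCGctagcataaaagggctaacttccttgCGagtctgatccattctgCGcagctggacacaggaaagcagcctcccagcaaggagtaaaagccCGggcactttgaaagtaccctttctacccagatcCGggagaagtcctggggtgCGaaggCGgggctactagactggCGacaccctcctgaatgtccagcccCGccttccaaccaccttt
Itga2, chr13:114932101-114932350, minus strand: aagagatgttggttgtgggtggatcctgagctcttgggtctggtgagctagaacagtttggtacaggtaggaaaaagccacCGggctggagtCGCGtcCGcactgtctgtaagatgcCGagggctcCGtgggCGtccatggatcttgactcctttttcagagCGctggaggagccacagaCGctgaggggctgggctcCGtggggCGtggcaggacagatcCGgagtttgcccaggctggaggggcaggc
Itgb1, chr8:128685404-128685653, plus strand: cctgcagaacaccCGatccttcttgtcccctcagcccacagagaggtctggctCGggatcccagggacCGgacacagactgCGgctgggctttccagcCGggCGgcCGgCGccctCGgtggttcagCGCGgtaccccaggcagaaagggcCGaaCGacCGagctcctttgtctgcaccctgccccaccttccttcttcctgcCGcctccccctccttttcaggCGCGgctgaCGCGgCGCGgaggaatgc
Lama2, chr10:27616943-27617192, minus strand: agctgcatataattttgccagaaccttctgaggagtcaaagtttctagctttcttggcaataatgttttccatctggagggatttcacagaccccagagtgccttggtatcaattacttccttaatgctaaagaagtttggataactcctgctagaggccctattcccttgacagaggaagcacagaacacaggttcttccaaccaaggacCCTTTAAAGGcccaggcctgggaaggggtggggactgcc

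These stretches held 10 CG for Itga1, 12 for Itga2, 21 for Itgb1 and 0 for Lama2. The low neighbour Itga2 thus held no fewer CG than Itga1. The Lama2 box of 10 bases ends 29 bases before the start site. The CArG box was found in 2.78% of the 36 promoters and in 1.63% of all promoters in the table, both strands searched. The AP-1 motif TGANTCA was found in Itga9 and Itgax, 5.56% of the 36 against 7.81% of all. For Itga9 the listed start is 104983 bases from the row's edge, so that window may not serve the transcript measured. The cyclic AMP element TGACGTCA was found in none of the 36, against 1.79% of all. Lama2, the gene with the CArG box, had a log2 fold of -0.32 [-1.01 to 0.37] with PDGFA and -0.15 [-0.66 to 0.37] with FGF1.

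After 1 h of PDGFA none of these adhesion genes was called higher or lower than in starved cells. In either direction 0 of 34 were called. Of all 11702 rows compared, 0.308% were called higher and 0% lower. No member differed by 1.5-fold or more on the scale of log2(FPKM + 0.5), where 3.67% of all rows were that far higher and 0.393% that far lower. The median log2 fold was -0.05 over the 34 genes and -0.0029 over all rows, and 25 of 34 stood within 1.2-fold of starved cells, or 73.5% against 75.5% of all rows. With so few rows called, 0 of 34 is near the background.

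The members with the highest PDGFA values relative to starved cells included 2 genes near 1 FPKM, Cdh15 and Itga2b. Both were under 1 FPKM in starved cells and entered the comparison only through ligand-treated cells, so the minimum level favours a positive fold for them. Cdh15 had a log2 fold of 0.51 [-0.27 to 1.30]. Itga2b had 0.50 [-0.25 to 1.25]. Itga5, the most abundant of this set, had 0.39 [-0.40 to 1.19], from 82.6 to 109 FPKM. All of these intervals include 0. Lama5 had a log2 fold of 0.39 [-0.41 to 1.18] and Itga3 of 0.38 [-0.34 to 1.09]. At the other end Lama2 had -0.32 [-1.01 to 0.37], Itga1 -0.29 [-1.22 to 0.63] and Cdh11 -0.26 [-1.09 to 0.57]. By family, the median log2 fold was 0.06 for cadherins, -0.10 for alpha chains, -0.03 for beta chains and -0.06 for laminins, with the cadherin sign turned by quantile normalization (-0.02) or a minimum of 0.1 FPKM (-0.042) and the beta-chain sign by a minimum of 5 FPKM (0.11).

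The PDGFA intervals were wide. Their median half-width was 51.0% of the FPKM for the 34 genes, against 23.8% in starved and 33.3% in FGF1 cells, and all rows showed like widths (49.6%, 25.6% and 34.7%). A 2-fold difference in at least 1 direction therefore lay inside the PDGFA fold interval of 16 of the 34 genes, among them Itgb1, Itga5, Itga8 and Cdh11. For the other 18, which include Itgav, Itgb5, Lamb1, Lamc1 and Cdh2, the fold interval stayed within 2-fold both ways, which is 52.9% of the genes against 62.2% of all rows. The smallest difference was that of Cdh2, with a log2 fold of 0.0062 [-0.76 to 0.77]. The bounds were taken as 95% bounds for these intervals, since their level is not stated.

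The PDGFA differences of these genes ran with the GC content of the transcript. The Spearman correlation of log2 fold with GC was 0.62 over the 34 genes and 0.61 over 11510 rows. It is given as a description, since the points share the same libraries. Of the 19 genes above the median GC of all rows (50.4%) 14 had a higher value with PDGFA, and their median log2 fold was 0.17. Of the 15 at or below it 2 did, Cdh6 and Cdh2, with a median of -0.18. With FGF1 the correlation was 0.08 over the 34 genes and 0.18 over all rows. Once the trend of all rows on GC, length and level was taken out, the PDGFA correlation over the 34 genes was 0.10. That trend was fitted on GC over all rows, these genes included, so a fall was built in and is no separate result.

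Taking out the trend moved the leading PDGFA members by different amounts. Cdh15 went from a log2 fold of 0.51 to 0.33 and Itga2b from 0.50 to 0.36. Itga5 went from a log2 fold of 0.39 to 0.16, Itga3 from 0.38 to 0.17 and Lama5 from 0.39 to 0.14. Lamb2 went from 0.24 to -0.02 and Cdh24 from 0.32 to 0.10. These are GC-rich transcripts, of 57.5% to 61.2% GC. Cdh6, at 42.4% GC, moved up from 0.23 to 0.44. What part GC content has in the differences was not tested further.

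**Figure D4:**
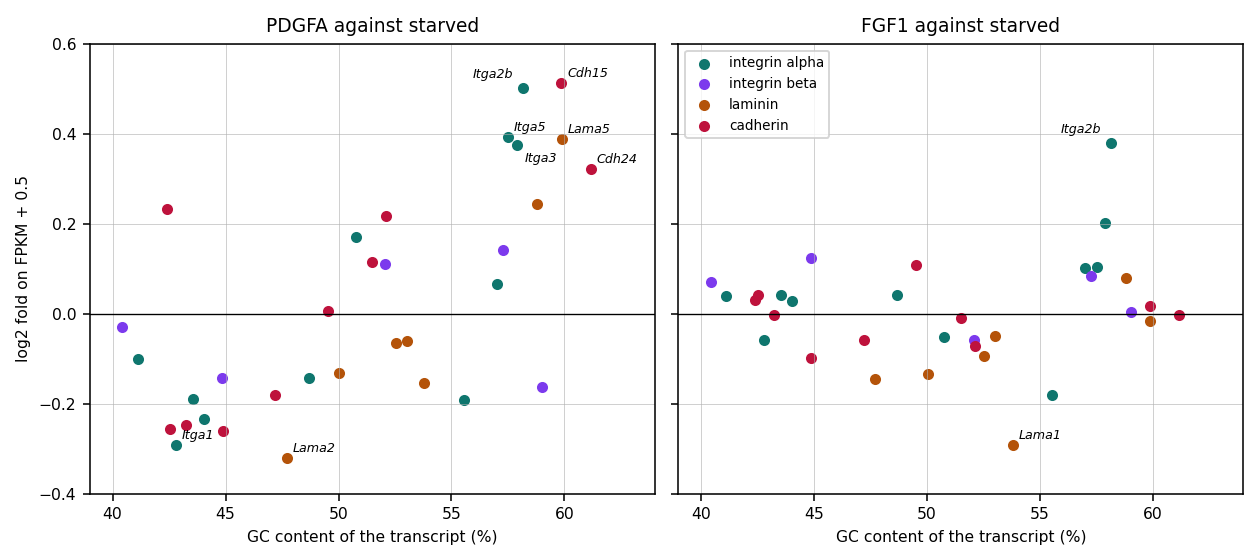
Log2 fold on FPKM + 0.5 (y axis) against GC content of the transcript in percent (x axis) for 33 of the 34 genes, coloured by family, for PDGFA (left) and FGF1 with heparin (right) against starved cells. With PDGFA the genes under 48% GC lie below 0 except Cdh6, and the genes above 57% lie above 0 except Itgb4; with FGF1 the correlation was 0.08.

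Markers of other cell types are set beside some of these genes. Cdh15, the muscle cadherin, had its highest value with PDGFA, where the muscle marker sum was also highest. Cdh15 entered the comparison only through that PDGFA value, and its log2 fold interval, -0.27 to 1.30, included 0. Of the 11 muscle markers 8 reached 1 FPKM in some group. Acta1 was called higher with PDGFA (17.2 to 87.5 FPKM), as was Actc1 (1.46 to 10.96 FPKM), and without both the sum was 10.8 FPKM in starved cells, 18.8 with PDGFA and 9.57 with FGF1. All 8 compared muscle markers had a higher value with PDGFA, against 49.3% of all rows. Past 1.5-fold higher were 6, against 3.67% of all rows. They include the troponin Tnni1 (0.704 to 2.68 FPKM) and the myosin light chain Mylpf (2.49 to 5.30 FPKM). Myog, Des, Tnni1 and Tnnt1 passed 1 FPKM only with PDGFA, so the minimum level favours a higher PDGFA value for them. The myogenic factor Myog went from 0.687 to 1.56 FPKM. Myod1 went from 0.0712 to 0.258 FPKM, and Myf5 stayed at 0.0854 FPKM or less. Itga7, which muscle also carries, had a log2 fold of 0.066 [-0.67 to 0.81] with PDGFA. The part of muscle cells in the Cdh15 value was not tested. For Lama5 and Itga3, which epithelium carries, the epithelial marker sum was 4.85 FPKM in starved cells, 7.69 with PDGFA and 6.74 with FGF1. This sum was led by Krt18, which was past 1.5-fold higher with PDGFA and not called, with Epcam at 0.113 FPKM or less. Of 10 markers of endothelium, which carries Lama4 and Lama5, 4 reached 1 FPKM. They were Egfl7 (2.41 FPKM in starved cells), Kdr (2.03), Tek (1.37) and Erg (1.17), while Tie1 was at 0. The sums over the 10 were 7.42 FPKM in starved cells, 9.47 with PDGFA and 7.54 with FGF1. Of 9 blood markers measured 1 reached 1 FPKM, Cd14, with sums of 4.05, 4.01 and 3.57 FPKM in the same order. The part of these cell types, and of neurons, in the values was not tested.

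After 1 h of FGF1 with heparin no adhesion gene was called either, and the fold intervals were narrower. Calls were 0 of 34 in each direction, where 0.538% of all rows were called higher and 0.0171% lower. None differed by 1.5-fold on FPKM + 0.5, against 1.26% of all rows higher and 0.299% lower. The median log2 fold was 0.01 over the 34 genes and 0.02 over all rows, and 31 of 34 lay within 1.2-fold, or 91.2% against 90.4% of all rows. All 34 fold intervals stayed within 2-fold in both directions, as did those of 89.6% of all rows.

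Itga2b and Lama1 were among the genes beyond 1.2-fold with FGF1. Itga2b, which entered only through its ligand groups, had a log2 fold of 0.38 [-0.18 to 0.94], and Lama1 one of -0.29 [-0.77 to 0.19]. Both intervals include 0. Among the laminins 6 of 8 values were below the starved value, with a family median of -0.07. Of the beta chains 4 of 5 and of the alpha chains 8 of 11 were above it, with medians of 0.07 and 0.04. Above the starved value were 52.9% of the 34 genes and 56.0% of all rows, and the families are small. The cadherin median was -0.0032, and it turned to 0.01 with quantile normalization and to 0.017 with the trend removed.

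**Figure D5:**
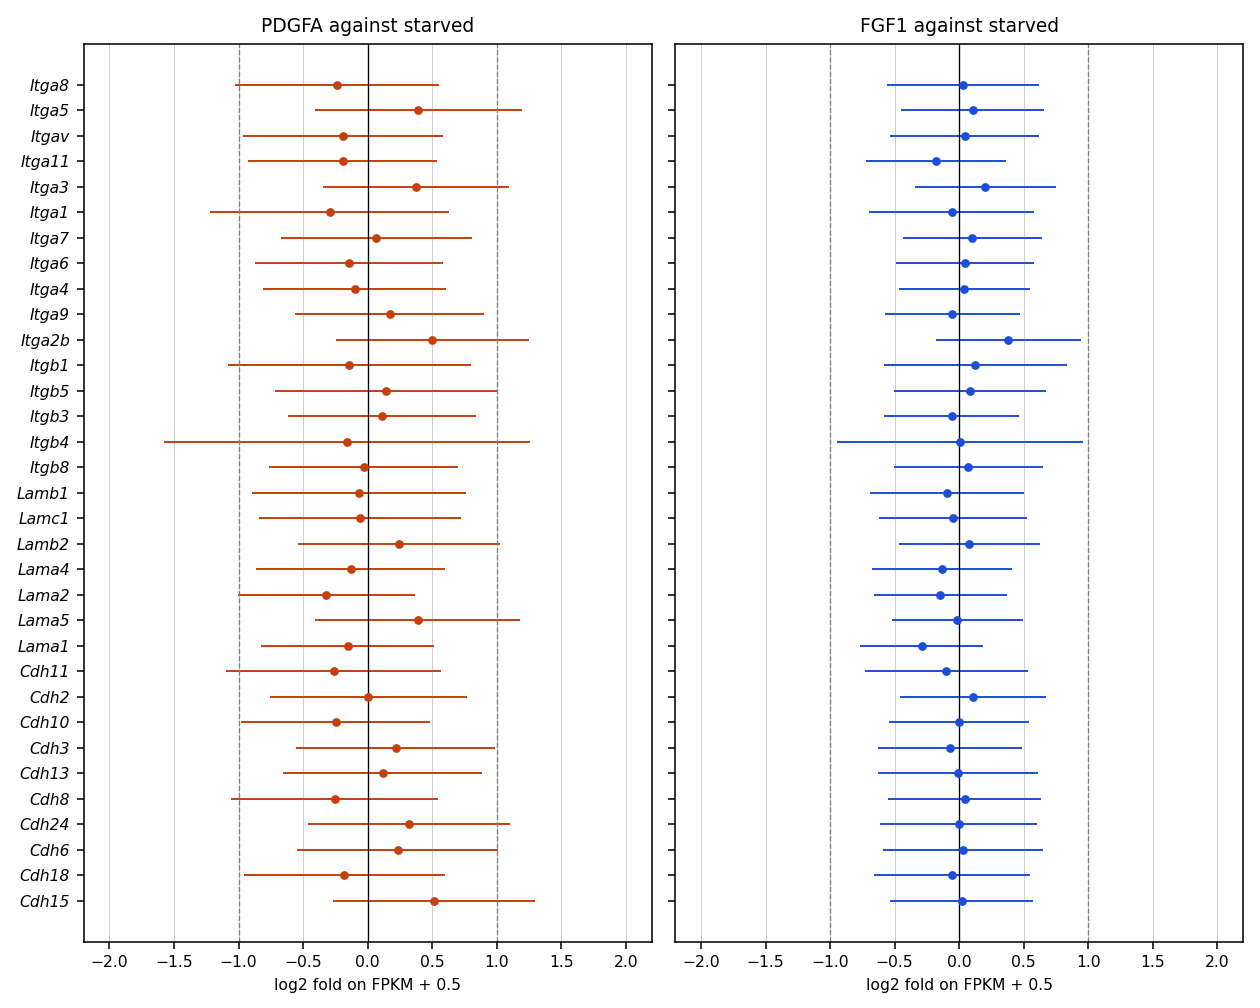
Log2 fold on FPKM + 0.5 of 33 of the 34 genes, by family and falling starved level, for PDGFA (left) and FGF1 with heparin (right) against starved cells; bars are fold intervals made from the deposited bounds and dashed lines mark 2-fold. Every interval crosses 0 in both comparisons, and with FGF1 all lie within 2-fold.

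Between the ligands no adhesion gene was called. Calls were 0 of 34 in each direction, where 0.0256% of all rows were called higher with FGF1 than with PDGFA and 0.094% lower. None differed by 1.5-fold on FPKM + 0.5, against 0.607% of all rows higher and 1.99% lower. Cdh15 had a log2 fold of -0.50 [-1.30 to 0.31]; its FPKM with FGF1 was 0.603 of that with PDGFA, the only group in which it passed the minimum level. Cdh8 had a log2 fold of 0.30 [-0.56 to 1.15]. Lama5 had -0.40 [-1.26 to 0.45], Itga5 -0.29 [-1.15 to 0.57] and Itgb1 0.27 [-0.72 to 1.25]. The Spearman correlation with GC was -0.66 over the 34 genes and -0.60 over all rows, and -0.24 over the 34 with the trend removed. With the trend removed the log2 fold of Lama5 was -0.15, that of Itga5 -0.17, that of Itgb1 0.11 and that of Cdh8 0.17. Family medians were -0.01 for cadherins, 0.04 for alpha chains, 0.10 for beta chains and -0.03 for laminins. The cadherin sign turned with quantile normalization (0.02) and with either other minimum, the laminin sign with quantile normalization (0.0027) and with the trend removed (0.0040), and the beta-chain sign at a minimum of 5 FPKM (-0.057). For 18 of 34 genes the interval stayed within 2-fold both ways, or 52.9% against 56.1% of all rows. The PDGFA and FGF1 comparisons share the starved group, so their values are given side by side and not related to each other.

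Other genes of the adhesion pathways were taken from lists by function. Of 29 focal adhesion genes measured, the link from integrins to actin, 26 were compared and none was called with either ligand or between them. Their median log2 fold with PDGFA was 0.26 with 23 of 26 values higher, where 49.3% of all rows had a higher value, and 0.14 with the trend on GC, length and level taken out, beside -0.05 for the 34 receptors and ligands. Bcar1, an adaptor phosphorylated at adhesions, was past 1.5-fold, from 43.1 FPKM [33.9 to 52.3] to 65.7 [31.6 to 99.9] with PDGFA. Its log2 fold was 0.60 [-0.20 to 1.41]. Vcl, vinculin, had a log2 fold of 0.53 [0.14 to 0.91] and Zyx, zyxin, one of 0.53 [0.055 to 1.01]. The fold intervals of Vcl and Zyx lay above 0, and those of the other compared genes of the list included 0. Vcl and Zyx had narrow PDGFA bounds, 217 to 316 around 267 FPKM and 429 to 613 around 521 FPKM. Tln1, Actn1 and Actn4 had like log2 folds of 0.55, 0.53 and 0.57 with wider bounds, such as 52.5 to 219.6 around 136 FPKM for Tln1. The split at 0 thus also reflects the width of the bounds. The deposited intervals of Vcl and Zyx still met, and with the trend taken out their log2 folds were 0.50 and 0.24. With FGF1 the list's median was 0.10, with 20 of 26 values higher, against 56.0% of all rows, and 0.04 with the trend taken out. Of 15 catenin and junction genes 14 were compared and none was called. Ctnnb1, beta-catenin, had 203 FPKM in starved cells, 204 with PDGFA and 211 with FGF1. Jup, plakoglobin, was past 1.5-fold with PDGFA, from 26.1 to 39.6 FPKM with overlapping intervals.

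The partners of the laminins in the matrix were not called either. Of 20 basement membrane genes 16 were compared, and none was called or past 1.5-fold with either ligand. Nid1, nidogen, which binds the laminin gamma chain, had 171 FPKM in starved cells, 173 with PDGFA and 172 with FGF1. Of 23 integrin ligand genes 19 were compared. Ccn2, a matricellular ligand of integrins, was called higher with FGF1, from 673 FPKM [459 to 888] to 1509 [917 to 2101], and stood at 1372 [537 to 2204] with PDGFA, where it was past 1.5-fold without being called. Its relative Ccn1 had 326 FPKM in starved cells, 624 with PDGFA and 649 with FGF1, past 1.5-fold in both with intervals that met. The log2 fold of Ccn1 was 0.93 [0.059 to 1.81] with PDGFA and 0.99 [0.33 to 1.65] with FGF1. That of Ccn2 with PDGFA was 1.03 [0.037 to 2.01], so these fold intervals lay above 0. Postn, periostin, had 697 FPKM in starved cells, 407 with PDGFA and 578 with FGF1, past 1.5-fold lower with PDGFA and not called. Of 22 desmosomal and other cadherin-like genes measured 6 reached 1 FPKM and none was called. The 6 were Cdhr1, Fat1, Fat4, Dchs1, Clstn1 and Clstn2, and the desmosomal Dsg and Dsc genes stayed at 0.416 FPKM or less. Calls were rare over all rows as well, with 0.308% higher with PDGFA and 0.538% with FGF1.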

How the data were processed

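RNA-seq values were compared for 11 libraries in 3 groups. The submitters' processing notes name CASAVA, TopHat and Cuffdiff and the build mm10. Their versions and roles and the annotation, not given in the sources used here, could change the values. The authors deposited FPKM as 1 value per group with a lower and an upper bound. Of the rows, 22992 took a symbol from RefSeq (GRCm38.p6), 126 from GENCODE and 168 none. Rows with at least 1 FPKM in a group and no failed estimate (2 rows) were compared. A planned test over libraries needs values per library; the interval rule, chosen after the table was seen, took its place, and a called row also needed each FPKM inside its own bounds, as held for all 60 genes. Log2 folds used a pseudocount of 0.5 FPKM. A robust cubic regression on level, length (both log2) and GC gave the trend. The calling rule was also run on simulated data. The noise there was smaller than the deposited intervals imply, so the run does not show how many true changes the rule misses. Alternatives covered minimum FPKM, pseudocount, scaling, the interval rule and the trend.

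The genes and lists were chosen with earlier results of these data known. Every compared gene but 1, which is not reported here, is named with its 3 values; from other lists, called genes and then those past 1.5-fold were named by size of fold, at most 4 a list. Further genes of these lists, such as Myog, Myod1, Myf5, Vcl, Zyx, Ctnnb1 and Nid1, were named after their values were seen. Promoter sequences are from RefSeq; those shown and the neighbour pairs were chosen after values were seen. Scripts ran in Python 3.11.15 with statsmodels 0.14.6 for the regression, scipy 1.17.1 for correlations, pandas 2.3.3, numpy 2.4.6 and, for plots, matplotlib 3.10.9.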

Additional observations from a re-analysis of the deposited data

How the results depend on the processing

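No paired analysis was possible because the table holds a single value per group; leaving out a library and the replicate block were not run for the same reason. The count of adhesion genes called was 0 in all 3 comparisons under every alternative run, with 45 genes compared at a minimum of 0.1 FPKM and 22 at 5 FPKM. Of 84 alternative family medians 76 stayed within 0.1 (log2) of the reported value, and 8 moved further. Most reported medians were themselves smaller than 0.1 in size, so staying within 0.1 does not fix their sign. At a minimum of 0.1 FPKM the cadherin median was -0.042 for PDGFA against starved and 0.11 for FGF1 against PDGFA. At 5 FPKM the cadherin median for FGF1 against PDGFA was 0.10, and the beta-chain median was 0.11 for PDGFA against starved and -0.057 for FGF1 against PDGFA. With quantile normalization the laminin median was -0.17 for PDGFA and -0.18 for FGF1 against starved. With the trend removed it was -0.18 for PDGFA. In 11 cases a family median took the other sign. Over all rows, with z values from the bounds 27 rows were called higher and 7 lower for FGF1 against starved in place of 63 and 2, and 30 lower in place of 11 for FGF1 against PDGFA. A minimum of 5 FPKM gave 5 lower in place of 11 for FGF1 against PDGFA and 1 in place of 2 for FGF1 against starved, and median-of-ratios scaling 1 higher in place of 3 for FGF1 against PDGFA. For PDGFA against starved, 3 rows were lower with quantile normalization and with z values, in place of 0. At a minimum of 0.1 FPKM 3 were lower for FGF1 against starved in place of 2. The cause of these shifts was not tested. Depth is unknown, and the wide PDGFA intervals limit what could be seen there.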
